A study of Mus musculus with 8 samples.

Results

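The ATP-binding cassette (ABC) transporter genes were measured in the livers of male mice without Bgn, which encodes biglycan, a proteoglycan of the extracellular matrix, and of male wild type mice. Members were all genes on the array whose symbol begins with Abc, a subfamily letter from a to g and a digit, which gave 46 genes of 16593 named genes in all, measured by 80 of the 25697 probes. Tap1, Tap2 and Cftr encode ABC proteins under other names and are given beside the members. The study had 4 Bgn knockout and 4 wild type livers, all from mice aged 13 weeks on a C57BL/6 background fed a standard rodent chow, with 1 single-colour Illumina bead array per liver. The labels give neither the part of Bgn removed nor the hour of collection, and do not say whether the knockout and wild type mice were littermates.

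ABC proteins use the energy of ATP to move substrates across membranes, either as full transporters or as shorter ones that work in pairs. In hepatocytes, members on the canalicular membrane secrete bile salts, phospholipid, sterols and conjugated bilirubin into bile, and members on the sinusoidal membrane return conjugates to blood. Others bring fatty acyl-CoA into peroxisomes or serve haem and iron handling in mitochondria, and the E and F subfamilies are soluble proteins of translation that transport nothing.

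Abcd3, which encodes a peroxisomal membrane transporter of branched-chain and bile acid precursor acyl-CoA, fell 1.66-fold in Bgn knockout livers, and no other member passed the test. Both probes of Abcc2, the canalicular exporter of conjugated bilirubin, had values below 0 without passing. The bile salt pump Abcb11, the phospholipid floppase Abcb4 and the sterol pair Abcg5 and Abcg8 were bright on all arrays, and their knockout and wild type values overlapped. Among lipid transporters of the A subfamily, Abca8a and Abca9 had values above 0 without passing.

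Testing required a detection p-value under 0.05 on 4 or more of the 8 arrays, a condition met by 46 probes of 30 ABC genes. Of these 46 probes, 1 was lower and 0 were higher in the knockout (limma, Benjamini-Hochberg adjusted p under 0.05 over all 11494 tested probes). The share of all tested probes past that threshold was 1.1%, with 0.722% lower and 0.383% higher. At an unadjusted p under 0.05 there were 7 ABC probes (Abcd3, both of Abcc2 and 1 of Abcf1 lower, Abca8a and 2 of Abca9 higher), or 15.2%, against 13.3% of all tested probes. The 2 groups did not overlap for 3 ABC probes, or 6.52%, against 8.07% of all tested probes. For unadjusted calls and for separated groups the ABC probes lay near the whole array. Values below 0 were found for 30 of the 46 ABC probes, or 65.2%, against 49.1% of all, and the median log2 change was -0.082 for the ABC probes and 0.0050 for all tested probes. The design text counts 4 mice a group, so the p-values measure the spread between single livers.

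**Figure D1:**
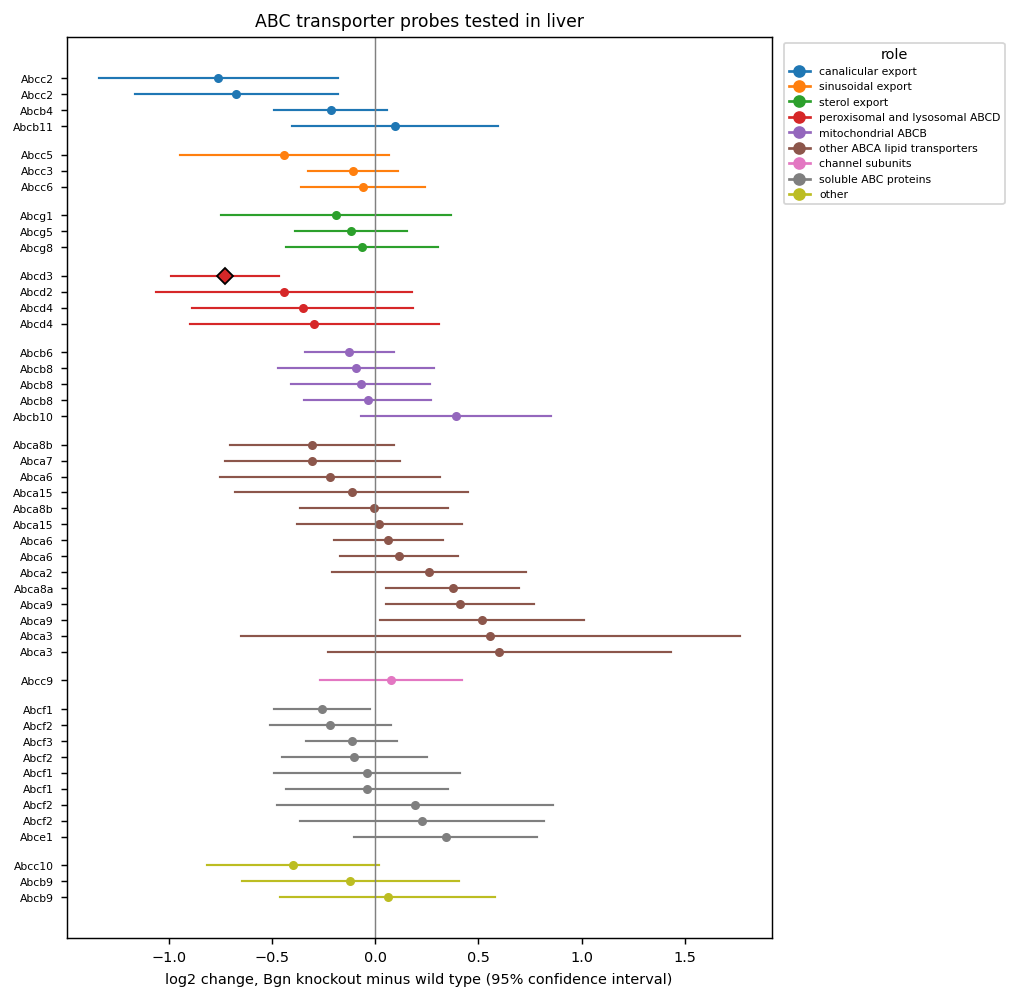
Log2 change (Bgn knockout minus wild type, horizontal axis) of the 46 tested ABC probes, 1 row per probe under its gene symbol and coloured by role. Points are the limma estimates and lines their 95% confidence intervals. The diamond marks Abcd3 at -0.73, the probe past the threshold, and the 6 other probes at an unadjusted p under 0.05 have intervals that leave out 0.

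Reference sequence is shown for 3 stretches, because they precede the start sites of the members the results turn on: Abcd3, which passed the test, Abcc2, whose probes both lay below 0, and the shared interval of Abcg5 and Abcg8, which varied together over the arrays. They come from RefSeq (GRCm38.p6), where 36 of the 46 ABC genes had an entry. The Abcd3 stretch is chr3:121815303-121815552 on the minus strand, the Abcc2 stretch is chr19:43782058-43782307 on the plus strand, and each holds the 250 bases before the start. The third is chr17:84683012-84683120, the 109 bases between the Abcg5 start on the minus strand and an Abcg8 start on the plus strand, written on the plus strand. Capitals mark matches, on either strand, to motifs chosen after the sequences were seen. The core site of many nuclear receptors is AGGTCA. The HNF4 motif is CAAAGTCCA. That of GATA factors is AGATAA. The E-box is CACGTG. The antioxidant response element core is TGACNNNGC. One D-box is TTATGTAA. The other D-box is TTACGTAA.
Abcd3: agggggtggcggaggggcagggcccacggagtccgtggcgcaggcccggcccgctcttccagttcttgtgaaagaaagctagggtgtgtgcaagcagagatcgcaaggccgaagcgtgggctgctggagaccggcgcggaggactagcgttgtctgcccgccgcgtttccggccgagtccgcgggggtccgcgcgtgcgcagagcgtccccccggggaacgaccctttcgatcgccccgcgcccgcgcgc
Abcc2: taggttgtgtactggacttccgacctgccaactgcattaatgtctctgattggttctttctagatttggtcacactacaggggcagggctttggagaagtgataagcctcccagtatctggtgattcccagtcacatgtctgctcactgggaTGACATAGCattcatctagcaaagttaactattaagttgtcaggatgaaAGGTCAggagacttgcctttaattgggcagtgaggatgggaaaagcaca
Abcg5 and Abcg8: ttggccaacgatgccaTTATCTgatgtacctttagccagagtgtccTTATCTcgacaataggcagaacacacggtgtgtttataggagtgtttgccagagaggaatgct
The Abcd3 stretch had a GC content of 72.0% and no match to these letters. The Abcc2 stretch had a GC content of 45.6%, with 1 match to TGACNNNGC beginning 98 bases before the start and 1 match to AGGTCA beginning 49 bases before it. Windows of 250 bases held TGACNNNGC in 10.2% and AGGTCA in 14.0% of the 32851 RefSeq promoters. The interval between Abcg5 and Abcg8 held 2 matches to AGATAA, both as TTATCT on the printed strand, beginning 93 and 63 bases before the Abcg8 start. In windows of this length before a start, 3.98% of all promoters had 1 or more, and the share with 2 was not counted. The matches that were found do not overlap each other.

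Among the peroxisomal and lysosomal D subfamily, Abcd3 was represented by 1 probe. Its log2 intensity was 12.97, 13.05, 12.89 and 12.91 in Bgn knockout livers 1 to 4, against 14.07, 13.70, 13.50 and 13.47 in wild type livers 1 to 4. The highest knockout liver lay below the lowest wild type liver, and the spread was narrower in the knockout (SD 0.074) than in wild type (SD 0.28). In the deposited values before normalization, Abcd3 averaged 8295 ± 1323 intensity units in knockout livers and 13225.5 ± 1965 in wild type livers (SD, n = 4 each). The log2 change was -0.73 (SE 0.12, 95% confidence interval -0.99 to -0.47; limma, Benjamini-Hochberg adjusted p = 0.0120), so that the knockout level was 60.3% of the wild type level. An exact two-sided permutation test of this gene gave p = 0.0286, the smallest that the 70 label assignments allow. Every probe whose groups do not overlap gives this same p, and 8.07% of all tested probes were such. The test therefore adds nothing to the separation of the groups. The deposited values were 9308.6, 9420.8, 7804.2 and 6648.3 in knockout livers, against 16105.7, 12814.1, 12183.8 and 11798.3 in wild type livers, again without overlap. The call was lost with eBayes without trend and robust variance (limma adjusted p = 0.0685), and over the 19 alternatives adjusted p ran between 0.00195 and 0.0685. It held without each array in turn, with a log2 change between -0.80 and -0.60 and adjusted p up to 0.0479. In whole tissue, fewer cells of a type and less RNA per cell cannot be told apart.

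The other D subfamily members did not pass. Abcd2, a peroxisomal transporter of very long-chain acyl-CoA, was detected on 2 of 4 knockout and 3 of 4 wild type arrays. Its log2 intensity was 5.55, 4.76, 5.03 and 5.53 in knockout livers, against 5.40, 5.12, 5.74 and 6.37 in wild type livers, with a log2 change of -0.44 (95% confidence interval -1.06 to 0.18). Leaving out wild type liver 4 brought the Abcd2 change to -0.20 and leaving out knockout liver 2 to -0.28. On signals with no background correction it was -0.14. Knockout livers 2 and 3 were the lowest and wild type liver 4 the highest. Abcd4, a lysosomal protein of cobalamin export, had 6.34, 5.44, 6.11 and 6.85 in knockout livers, against 6.63, 6.27, 6.22 and 6.81 in wild type livers on its brighter probe. The dimmer Abcd4 probe had 5.20, 4.88, 5.56 and 5.98 in knockout livers, against 5.72, 5.73, 6.07 and 5.50 in wild type livers. Knockout liver 2 was the lowest on both probes, and the changes were -0.30 and -0.35. Both Abcd4 intervals crossed 0, at -0.90 to 0.31 and -0.89 to 0.18. The knockout and wild type ranges of Abcd2 and Abcd4 overlapped. With the 2 arrays highest in the muscle gene Tnnt3 left out, the brighter Abcd4 probe had 0.063.

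Other peroxisomal genes were set beside Abcd3. Of 13 measured enzymes and import factors 0 passed, 3 had values below 0 and 10 above 0, with a median log2 change of 0.041, beside -0.0030 over all 8105 tested genes. Pex19, the chaperone that delivers membrane proteins such as the Abcd3 product to peroxisomes, had -0.54 (SE 0.14; limma adjusted p = 0.111) and -0.97 (SE 0.37; adjusted p = 0.301) on its 2 probes. Acaa1a, a peroxisomal thiolase, had -0.24 (SE 0.11; adjusted p = 0.345). For Hsd17b4, Acaa1b and Acox2, other enzymes of peroxisomal beta-oxidation, the log2 changes were 0.041, 0.020 and 0.028, and for Cat, catalase, 0.23. Ehhadh had the highest change of the list, 0.36 (SE 0.32, limma adjusted p = 0.674). Scp2 had 0.13 (SE 0.085, limma adjusted p = 0.540) on its brightest probe and between 0.069 and 0.44 on its others. Ppara, the nuclear receptor that drives many peroxisomal genes, had -0.014 (95% confidence interval -0.49 to 0.46). The 10 tested genes nearest to Abcd3 on chromosome 3 held 0 past the threshold, with log2 changes between -0.23 and 0.41. As 1.1% of all tested probes passed, so few genes cannot show whether the region changed.

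**Figure D2:**
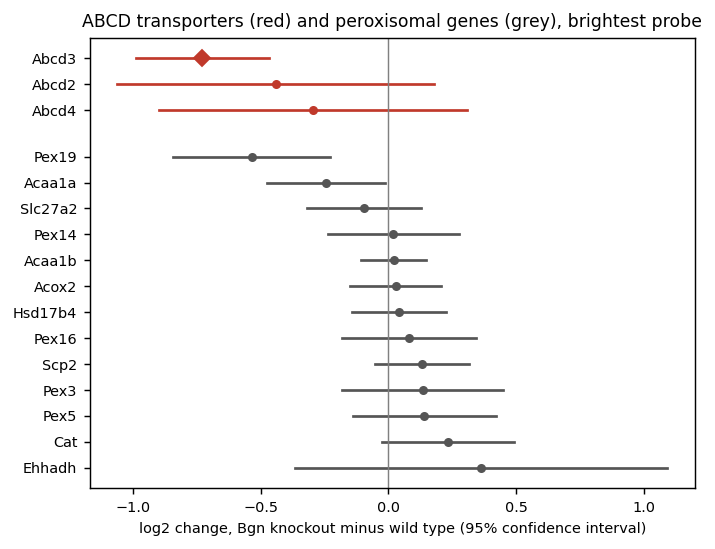
Log2 change (Bgn knockout minus wild type, horizontal axis) with 95% confidence interval for the brightest probe of each D subfamily member (red) and of 13 peroxisomal enzymes and import factors (grey). Abcd3 (diamond) lies at -0.73 and Pex19 at -0.54, while 10 of the 13 grey points lie above 0.

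Among canalicular exporters, 3 of 6 genes were tested and 0 passed, with a median log2 change of -0.22 over the brightest probes and -0.44 with all tested probes counted singly. On its brighter probe, Abcc2 had a log2 intensity of 10.07, 9.91, 9.84 and 10.17 in knockout livers, against 11.27, 10.06, 11.25 and 10.45 in wild type livers. On the dimmer probe it had 6.31, 7.03, 6.18 and 6.72 in knockout livers, against 7.42, 7.03, 7.57 and 6.91 in wild type livers. Wild type livers 1 and 3 were the high ones on both probes, and wild type livers 2 and 4 lay within or close to the knockout range. The log2 change was -0.76 (SE 0.26, 95% confidence interval -1.34 to -0.18; limma adjusted p = 0.250) on the brighter probe. The dimmer probe gave -0.67 (SE 0.23; adjusted p = 0.223). Without wild type replicate 2 the brighter probe passed (-0.99, limma adjusted p = 0.0456), and over its alternatives adjusted p ran between 0.0456 and 0.607. Without background correction the dimmer probe had -0.33. The 10 tested genes nearest to Abcc2 on chromosome 19 held 0 past the threshold, which 1.1% of all tested probes passed, so the count cannot show whether the region changed.

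Abcb11, the bile salt export pump, had a log2 intensity of 11.68, 11.56, 11.48 and 11.33 in knockout livers, against 12.04, 11.58, 10.81 and 11.25 in wild type livers. The knockout values lay inside the wild type range, and the log2 change was 0.095 (95% confidence interval -0.40 to 0.59; limma adjusted p = 0.897). Without wild type replicate 3, the lowest for this gene, its change was -0.11. Abcb4, which flips phosphatidylcholine into bile, had 12.60, 12.74, 12.83 and 12.92 in knockout livers, against 12.77, 12.75, 13.22 and 13.21 in wild type livers. Wild type livers 3 and 4 were above all knockout livers and wild type livers 1 and 2 were among them, and the log2 change was -0.22 (95% confidence interval -0.49 to 0.06; limma adjusted p = 0.491). Abcg2, an exporter of urate and drugs, and Abcb1a, a P-glycoprotein, were not above background on any array. The other P-glycoprotein gene, Abcb1b, was detected on 1 of 4 knockout and 1 of 4 wild type arrays. For a probe that is not above background, the signal only bounds the level.

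**Figure D3:**
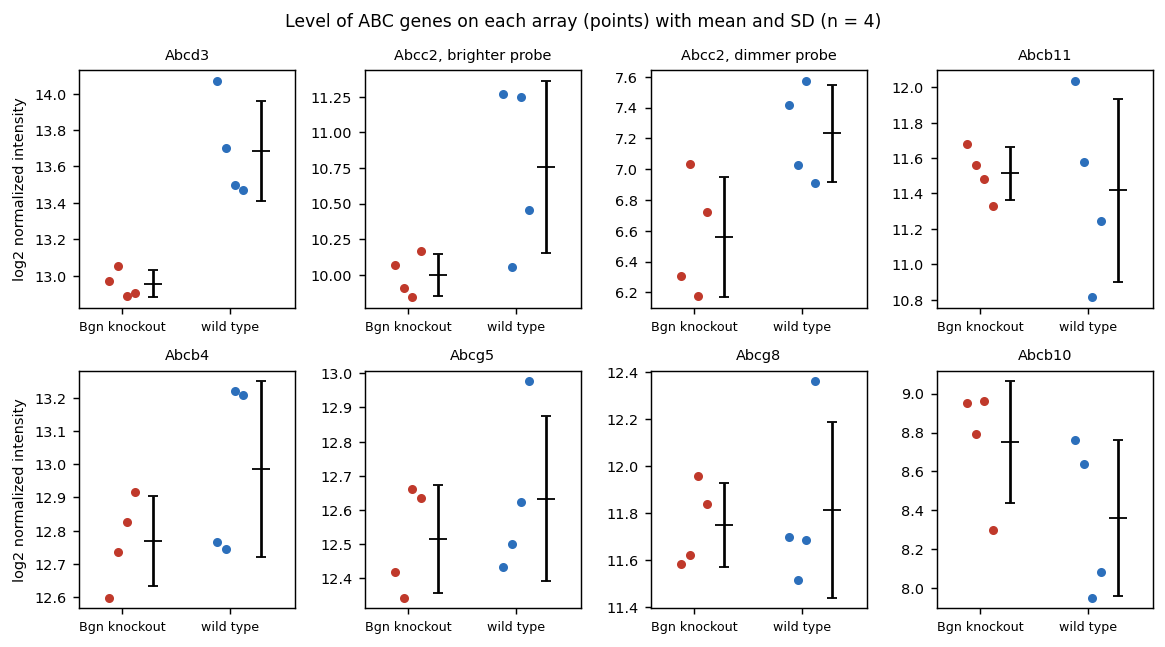
Log2 normalized intensity (vertical axis, a different range in each panel) on each array for 8 probes of 7 ABC genes, Bgn knockout left of wild type. Points are arrays, and black marks give mean and SD (n = 4). The groups are separate for Abcd3 and overlap in the panels of Abcc2, Abcb11, Abcb4, Abcg5, Abcg8 and Abcb10.

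Among sinusoidal exporters, 3 of 4 genes on the array were tested and 0 passed. Abcc3, which returns glucuronides to blood, averaged 11.76 ± 0.11 in knockout livers and 11.86 ± 0.13 in wild type livers on the log2 scale (SD, n = 4 each). Abcc6, a transporter linked to ATP release from hepatocytes, averaged 10.01 ± 0.25 in knockout livers and 10.07 ± 0.14 in wild type livers. The 95% confidence intervals of the change were -0.33 to 0.11 for Abcc3 and -0.36 to 0.24 for Abcc6, which bound the size of any change. Abcc5, an exporter of organic anions, had -0.44 (limma adjusted p = 0.448), detected on 1 of 4 knockout and 3 of 4 wild type arrays. Abcc1 was not above background on any array.

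The transporters that export sterols gave 3 tested genes of 5, of which 0 passed, with a median log2 change of -0.12. Abcg5 and Abcg8 encode the partners that form the canalicular sterol exporter. Abcg5 had a log2 intensity of 12.42, 12.34, 12.66 and 12.64 in knockout livers, against 12.43, 12.50, 12.62 and 12.98 in wild type livers. Abcg8 had 11.59, 11.62, 11.96 and 11.84 in knockout livers, against 11.70, 11.51, 11.69 and 12.36 in wild type livers. On both genes wild type liver 4 was the highest, and the remaining livers of both groups were mixed. The log2 changes were -0.12 (95% confidence interval -0.39 to 0.15) for Abcg5 and -0.064 (95% confidence interval -0.43 to 0.31) for Abcg8. Without wild type replicate 4 the change of Abcg8 was 0.12, so its sign rested on that array.

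Abcg1, which loads cholesterol onto HDL and is most active in macrophages, was detected on 3 of 4 knockout and 3 of 4 wild type arrays. Its log2 intensity was 5.84, 5.08, 5.34 and 5.56 in knockout livers, against 4.95, 5.83, 5.91 and 5.88 in wild type livers, and the change was -0.19 (95% confidence interval -0.75 to 0.37). Without 1 array the Abcg1 change ran between -0.42 (wild type replicate 1 left out) and -0.065 (Bgn knockout replicate 2 left out). Abca1, which starts HDL formation by loading cholesterol onto apolipoprotein A-I, was not above background on its 1 probe on any array. Abcg4, best known from brain, was above background on 3 of 4 knockout and 0 of 4 wild type arrays. Its signal was 5.15, 5.61, 4.89 and 5.31 on knockout arrays, against 4.46, 4.66, 4.79 and 4.47 on wild type arrays, so the groups did not overlap. The mean of all 4 knockout arrays (log2 5.24) lay 1.055-fold above the lowest detected signal of the wild type arrays (measured mean 4.59). As not all 4 knockout arrays were above background, that value is not a strict lower bound on the change. The probe did not enter the test, and with no filter on dim probes its limma adjusted p was 0.176. Of 8 tested genes of HDL and sterol trafficking 0 passed, 4 with values below 0 and 4 above, with Pltp, the phospholipid transfer protein, at -0.72 (SE 0.26; limma adjusted p = 0.269) and -0.71 on its probes and Lcat, the enzyme that esterifies HDL cholesterol, at -0.23 (SE 0.14; adjusted p = 0.520) on one probe and -0.14 on the brighter one.

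Pairs of members were set against each other over the 8 arrays, in 3 relations. Abcg5 and Abcg8 had a Pearson r of 0.91 and a Spearman rho of 0.79 on log2 values (exact permutation p = 0.00521 and 0.0279; p for r adjusted over the 3 pairs 0.0156). As deviations from the group means r was 0.92 (permutation p = 0.00300) and rho 0.69 (permutation p = 0.0694). Deviations within a group are tied to one another by their mean. A permutation of them over all arrays is therefore not exact, and its p can be too small. Without the 2 arrays farthest from the Abcg5 median r was 0.74, and without wild type replicate 4 it was 0.71. The sign of the relation did not rest on that array.

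Abcb11 and Abcb4 ran in opposite directions. Pearson r was -0.81 and Spearman rho -0.83 on log2 values (exact permutation p = 0.0108 and 0.0154; p for r adjusted over the 3 pairs 0.0163). As deviations from the group means r was -0.86 (permutation p = 0.000843) and rho -0.90 (permutation p = 0.00456). These p-values are again not exact and can be too small. Without the 2 arrays farthest from the Abcb11 median r on log2 values was -0.95. With the authors' normalized values r was -0.82. Abcb11 and Abcc2 had an r of -0.14 and a rho of -0.095 (exact permutation p = 0.703 and 0.840). All points of a pair share their arrays and normalization.

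**Figure D4:**
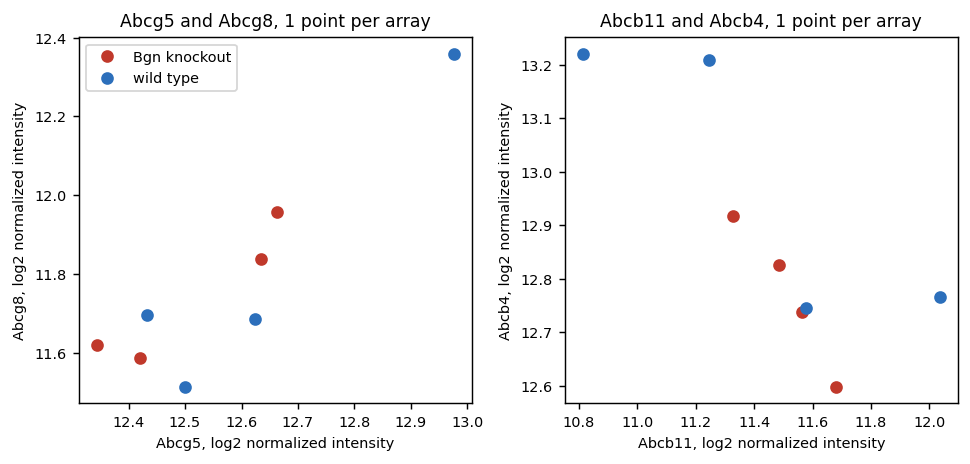
Log2 normalized intensity of 2 gene pairs, 1 point per array, with Bgn knockout in red and wild type in blue. Abcg8 (left, vertical axis) is highest on the array where Abcg5 is highest (r = 0.91), and Abcb4 (right, vertical axis) is lower where Abcb11 is higher (r = -0.81).

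Of mitochondrial B subfamily members, 3 were on the array and 0 passed, with a median log2 change of -0.035. Abcb10, a haem-related transporter of the inner membrane, had a log2 intensity of 8.95, 8.79, 8.96 and 8.30 in knockout livers, against 8.76, 8.64, 7.95 and 8.08 in wild type livers. Knockout liver 4 lay among the wild type livers, and the log2 change was 0.39 (95% confidence interval -0.07 to 0.85; limma adjusted p = 0.453). Abcb6, a porphyrin transporter, had 10.70, 10.63, 10.71 and 10.69 in knockout livers, against 10.76, 10.86, 10.67 and 10.94 in wild type livers. The knockout livers were close together (SD 0.032, against 0.12 in wild type), and the change was -0.13 (95% confidence interval -0.34 to 0.09). The brightest probe of Abcb8, linked to mitochondrial iron export, had 8.41, 8.27, 8.70 and 8.21 in knockout livers, against 8.48, 8.39, 8.33 and 8.54 in wild type livers. The other Abcb8 probes had 7.10, 7.25, 7.37 and 6.91 in knockout livers, against 7.20, 7.32, 7.28 and 7.12 in wild type livers, and 7.04, 7.13, 7.43 and 6.90 in knockout livers, against 7.41, 7.32, 6.91 and 7.23 in wild type livers. Both groups overlapped on every Abcb8 probe. The 3 probes had changes between -0.092 and -0.035, and the brightest had 0.033 with median scaling.

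The A subfamily beyond Abca1 held 15 genes, of which 8 were tested and 0 passed, with a median log2 change of 0.16 over the brightest probes. Abca8b, Abca8a, Abca9, Abca6 and Abca5 lie side by side in this order on chromosome 11, and their products are membrane lipid transporters with roles that are less well defined. Abca8a had a log2 intensity of 9.90, 9.84, 9.48 and 9.40 in knockout livers, against 9.38, 9.49, 9.07 and 9.18 in wild type livers. Knockout livers 1 and 2 were above all wild type livers, and the change was 0.37 (SE 0.15; limma adjusted p = 0.306). The brighter tested probe of Abca9 had 7.16, 6.99, 6.94 and 7.22 in knockout livers, against 6.82, 6.85, 6.50 and 6.50 in wild type livers. Its groups did not overlap, with a change of 0.41 (SE 0.16; limma adjusted p = 0.309), and the dimmer probe had 6.39, 6.90, 6.26 and 6.90 in knockout livers, against 6.59, 6.08, 5.86 and 5.87 in wild type livers. The dimmer probe overlapped and gave 0.52 (SE 0.23; adjusted p = 0.352). Abca8b had -0.0056 and -0.31 on its 2 probes (0.046 with median scaling on the brighter), and Abca6 had 0.115, 0.062 and -0.22 on its 3 probes. Abca5 was detected on 1 of 4 knockout and 0 of 4 wild type arrays. Without background correction the Abca9 changes were 0.20 and 0.21. Signal shared between the close relatives Abca8a and Abca8b was not tested, since probe sequences were not used here.

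**Figure D5:**
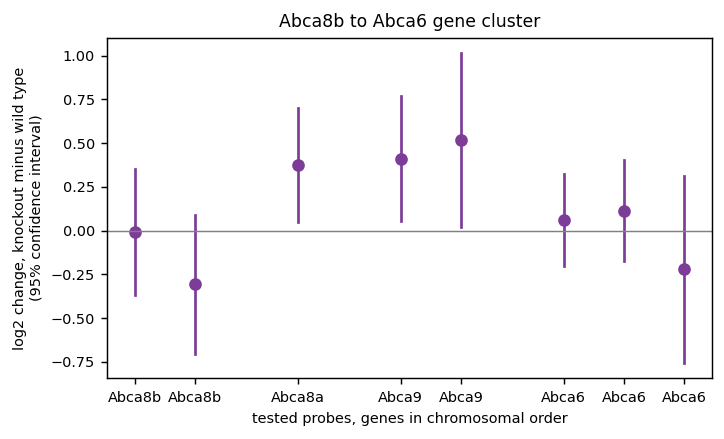
Log2 change (Bgn knockout minus wild type, vertical axis) with 95% confidence interval for the 8 tested probes of Abca8b, Abca8a, Abca9 and Abca6, in chromosomal order and brighter probes first. The probes of Abca8a and Abca9 lie between 0.37 and 0.52, and those of Abca8b and Abca6 lie between -0.31 and 0.115.

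Abca3, the lipid transporter of lung surfactant, had the widest spread within groups among the tested ABC probes, by SD. Its brighter probe had a log2 intensity of 12.24, 10.97, 11.88 and 11.29 in knockout livers, against 10.82, 11.64, 11.21 and 10.30 in wild type livers. The ranges overlapped widely, and the changes were 0.60 (SE 0.36) and 0.56 (SE 0.53) on its 2 probes. Without 1 array the Abca3 changes ran between 0.37 and 0.82 on the brighter probe and between 0.17 and 0.86 on the dimmer one, lowest without wild type replicate 4 and highest without wild type replicate 2. Abca2, a lysosomal lipid transporter, had 0.26 (SE 0.22) and Abca7, a phospholipid exporter, had -0.30 (SE 0.19) on its tested probe. Another Abca7 probe was above background on 0 of 4 knockout and 3 of 4 wild type arrays, with measured log2 means of 4.87 in knockout and 5.33 in wild type livers. Its wild type mean lay 1.12-fold above the lowest detected signal of the knockout arrays. That value is not a strict lower bound on the change, as not all 4 wild type arrays were above background. This probe did not enter the test, and with no filter on dim probes its limma adjusted p was 0.483. The remaining Abca7 probe was not above background on any array. Abca15 was tested on 2 of its 4 probes (-0.11 and 0.020), while Abca12 was detected on 2 of 4 knockout and 0 of 4 wild type arrays and Abca17 on 1 of 4 knockout and 0 of 4 wild type arrays. Abca4, Abca13, Abca14 and Abca16 were not above background on any array.

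The soluble members were the most uniformly detected group, with all 9 probes above background on the 8 arrays, against 48.8% of ABC probes and 37.5% of all probes. The brightest probe of Abcf1, which acts in translation initiation, had a log2 intensity of 10.54, 10.60, 10.69 and 10.69 in knockout livers, against 10.80, 10.79, 10.86 and 11.11 in wild type livers. The groups did not overlap, with a change of -0.26 (SE 0.11; limma adjusted p = 0.327), and the 2 dimmer probes of Abcf1 gave -0.039 (0.0082 with median scaling) and -0.040. Abce1, the ribosome recycling factor, had 0.34 (SE 0.20), Abcf3 had -0.11 (SE 0.10), and the 4 probes of Abcf2 ran between -0.22 and 0.23. Of the regulatory subunits of potassium channels, Abcc9 had 0.075 (SE 0.16) and Abcc8 was not above background on any array. Of the remaining members, Abcc10, a drug efflux pump, had -0.40 (SE 0.19; limma adjusted p = 0.396), Abcb9, a lysosomal peptide transporter, had -0.12 and 0.061, and Abcc12 and Abcg3 were not above background on any array. In all, 26 of the 46 genes had a probe above background on the 8 arrays, 11 had none on any array and 9 lay between. Abcb5 and Abcc4 were not analysed here.

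ABC genes under other names and other carriers did not pass either. Tap1, a subunit of the peptide transporter for antigen presentation, had -0.45 (SE 0.26; limma adjusted p = 0.476), and Tap2, its partner, had -0.0080 (SE 0.13). Of 9 tested bile and organic ion carriers 0 passed, 2 had values below 0 and 7 above 0, among them Atp8b1, a canalicular aminophospholipid flippase, with 0.25 (SE 0.14; adjusted p = 0.483) and Slco2b1 with 0.18 (SE 0.11; adjusted p = 0.517). Of 12 regulators of ABC genes 0 passed and 10 had values below 0 on their brightest probes, against 49.1% of all tested probes. The 2 above 0 were Srebf1 at 1.05 (SE 0.74, limma adjusted p = 0.595) and Nr1i3 at 0.10 (SE 0.29). Nfe2l2, which encodes the stress-response activator NRF2, known to raise Abcc2, had -0.60 (SE 0.19, limma adjusted p = 0.187). Its groups did not overlap, as for 8.07% of all tested probes. Foxa2, a hepatocyte transcription factor, had -0.61 (SE 0.22, limma adjusted p = 0.259). The bile acid receptor Nr1h4 had -0.064 (95% confidence interval -0.37 to 0.24), the xenobiotic receptor Nr1i2 had -0.14 (SE 0.15), and the oxysterol receptor Nr1h3 had -0.26 (SE 0.11) on its brighter probe and 0.19 (SE 0.29) on the other.

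Bgn itself checked the labels, with a log2 change of -5.86 (SE 0.14; limma adjusted p = 2.38e-10). Median deposited intensity was 142.2 to 163.9 on knockout arrays and 141.3 to 156.6 on wild type arrays, and precision is limited by how many arrays there were. Of 6 tested hepatocyte markers 0 passed, 4 had values below 0 and 2 above 0, while Tat and Fgb were on the array and not tested. Serpina1a, the one with the smallest p, had -0.28 (SE 0.092; limma adjusted p = 0.217) and -0.37 (SE 0.098; adjusted p = 0.118) on its 2 probes, the second without overlap. Of 8 tested Kupffer cell and macrophage markers 0 passed. On their brightest probes 8 had values below 0, against 49.1% of all tested probes. Dimmer probes had 0.046 for Adgre1, 0.01 for Lyz2, -0.57 for Clec4f and -0.62 for Aif1. Cd5l was on the array and not tested, and Cd68 and Csf1r had no probe under these names. Summed levels, in normalized intensity units, were 2172 to 2966 on knockout arrays and 2621 to 3810 on wild type arrays. Of 3 tested cholangiocyte markers Anxa4 fell (-1.90, SE 0.16; limma adjusted p = 4.84e-05), Sox9 and Krt7 did not pass, and Krt19 and Cftr were dim. Of 8 tested sinusoidal endothelial markers 0 passed, 4 below 0 and 4 above 0, with summed levels of 7197 to 9415 on knockout arrays and 6645 to 9507 on wild type arrays, and Lyve1 had -1.003 (SE 0.26; limma adjusted p = 0.104). Of 7 tested stellate cell markers 0 passed, 3 below 0 and 4 above 0, with summed levels of 10254 to 10843 on knockout arrays and 9114 to 12624 on wild type arrays, and Rgs5 had 1.05 (SE 0.30; limma adjusted p = 0.147). Red blood cell markers, Hba-a1 and Alas2, summed without overlap to 12991 to 21851 on knockout arrays and 22482 to 30385 on wild type arrays, with 0 of 2 past the threshold. The sum mostly follows the brighter Hba-a1 (-0.53; limma adjusted p = 0.376), whose groups did not overlap. Groups did not overlap for 8.07% of all tested probes either. Alas2 (-0.19; limma adjusted p = 0.559) overlapped. The muscle gene Tnnt3 was high on Bgn knockout replicate 2 (11.26), wild type replicate 4 (11.03) and Bgn knockout replicate 1 (8.79). The part of these cells in the ABC values was not tested. For muscle, Abcd3 had -0.84 without the 2 arrays highest in Tnnt3 (limma adjusted p = 0.0402), an alternative chosen after seeing the data. On those 2 arrays, Bgn knockout replicate 2 and wild type replicate 4, Abcc9, which muscle also expresses, had 7.92 and 8.20 on the log2 scale. The other arrays, which include Bgn knockout replicate 1 with its high Tnnt3, had 7.71 to 8.29. What muscle adds to the Abcc9 signal was not tested.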

How the data were processed

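Total RNA from 8 livers was labelled with biotin for Illumina bead arrays, per the labels' protocols. Per the file headers, the authors deposited an intensity and a detection p-value per probe and array. The deposited intensity is linear, with no values near 0 and medians that differ between arrays. The authors' deposited normalized intensity served as an alternative. Its making is described no further than by lumi 2.10.0 and R 2.15.0, which appear in the submitters' processing notes. Columns were matched to samples through their descriptions.

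The intensities were processed with neqc in limma 3.58.1 (R 4.3.3; offset 16, quantile normalization, log2), then fitted by group alone (lmFit, and eBayes with a robust variance trend) over all 11494 tested probes with Benjamini-Hochberg adjustment. Levels of a single probe are compared between groups, not between probes. Summed marker levels add the brightest tested probe of each gene on the linear scale, so the brightest probes weigh most in them. The platform table named 1 gene for 23978 of 25697 probes and none for 1719, and all 80 ABC probes matched the RefSeq table (GRCm38.p6) by Entrez number. Figures used matplotlib 3.10.9 in Python 3.11.15.

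The members and lists were chosen with earlier results of these data known. Every member was accounted for. Array values were given for tested probes past the threshold, at an unadjusted p under 0.05, without overlap, or in the canalicular, sterol, peroxisomal and mitochondrial lists. Genes in these lists with no tested probe are given by their detection, Abcg4 also by array. From related lists the genes with the smallest p were named. Others named there were chosen for their roles after values were seen. Alternatives were other background corrections, scalings, filters, variance models, weights per array, a replicate block, and each array left out. Of 8 planned gene pairs, 3 had both genes tested.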

Additional observations from a re-analysis of the deposited data

Results flagged for a closer look

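In some groups of 4 arrays, 1 array stood apart from the other 3 by Dixon's test at the 95% level. Of 92 groups checked over the 46 tested ABC probes 5 did so, against 4.6 expected by chance, since about 1 in 20 groups does. On the log2 intensity scale, Abcc5 reached 5.51 on Bgn knockout replicate 2, the other knockout arrays being 4.93 to 5.03. Abcg1 was 4.95 on wild type replicate 1 (others 5.83 to 5.91). Abce1, the ribosome recycling factor, was 6.54 on Bgn knockout replicate 1 (others 7.27 to 7.35). One dimmer Abcf1 probe stood at 7.34 on Bgn knockout replicate 4, beside 6.80 to 6.85 on the others, and 7.52 on wild type replicate 3 (others 6.77 to 6.90).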

How the results depend on the processing

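Abcd3 was past the threshold in 18 of 19 alternatives. With eBayes without trend and robust variance 0 ABC probes passed (Abcd3 limma adjusted p = 0.0685). Without 1 array in turn 1 to 2 ABC probes passed, 2 only without wild type replicate 2, where Abcc2 joined Abcd3. Over all probes, where 127 passed, 197 passed with array weights, 64 with the replicate block and 48 without both arrays highest in Tnnt3, an alternative added after seeing the data. Without 1 array the count was 59 to 121, with 59 when Bgn knockout replicate 2 was left out, 68 when Bgn knockout replicate 3 was left out, 81 for Bgn knockout replicate 1, 62 for wild type replicate 1 and 67 for wild type replicate 3. Same-numbered arrays correlated in their deviations at 0.057, -0.059, -0.30 and -0.12, and differently numbered arrays between -0.23 and 0.47. The labels do not say whether shared numbers pair mice, and so few values cannot decide it. Under the replicate block Abcd3 kept a limma adjusted p of 0.0279. The median change of canalicular genes was -0.22, and -0.44 with all tested probes counted singly. That of the D subfamily was -0.44, and -0.14 without background correction and -0.047 without both Tnnt3 arrays. That of soluble genes was -0.17, and -0.044 with probes averaged and -0.040 with probes counted singly. That of the remaining genes was -0.17, and 0.0081 with no filter on dim probes and -0.40 with the strict filter. Among log2 changes of single probes, 43 values under an alternative changed sign, all of probes that did not pass. With median scaling these were Abca8b (0.046), Abcb8 (0.033) and Abcf1 (0.0082). With array weights they were Abca15 (-0.016), Abca8b (0.0063) and the Abcb9 probes (-0.059 and 0.10). Without both Tnnt3 arrays they were Abca15 (-0.024), Abca6 (-0.028), Abca8b (0.027), Abcb8 (0.043), Abcb9 (0.068), Abcc6 (0.022), Abcd4 (0.063), Abcf2 (0.088), Abcg1 (0.012), Abcg5 (0.054) and Abcg8 (0.16). Without 1 array, ranges that crossed 0 were -0.048 to 0.083 for Abca15, -0.014 to 0.11 for Abca6, -0.13 to 0.074 for Abca8b, -0.11 to 0.30 for Abcb11, -0.14 to 0.0096 and -0.14 to 0.028 for Abcb8, -0.12 to 0.24 and -0.23 to 0.11 for Abcb9, -0.037 to 0.14 for Abcc9, -0.17 to 0.059 and -0.17 to 0.13 for Abcf1, -0.24 to 0.033 and -0.023 to 0.46 for Abcf2, and -0.16 to 0.12 for Abcg8. The cause of these shifts was not tested. The groups of 4 arrays, and signal near background for dim probes, limit what can be seen: Abcc5, Abcd2, Abcg1 and Abca15 were detected on only part of the arrays.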

Other observations

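Genes that make haem and iron-sulphur clusters, substrates or partners of the mitochondrial ABC proteins, were also measured. Of 13 tested genes 0 passed in limma, 2 (Alad and Nfs1) had an unadjusted p under 0.05 on the brightest probe, against 13.3% of all tested probes, 6 had values below 0 and 7 above 0. Slc25a38, the mitochondrial glycine carrier that feeds haem synthesis, had -0.19 (SE 0.096; limma adjusted p = 0.431) on its brightest probe, and -0.48 (SE 0.14; adjusted p = 0.155) and -0.064 on the others. Its groups did not overlap on the first and second of these. Nfs1, which supplies sulphur for iron-sulphur clusters, had 0.27 (SE 0.11; limma adjusted p = 0.305), with groups that did not overlap, on its brightest probe. Alad, an early enzyme of haem synthesis, had 0.49 (SE 0.15; limma adjusted p = 0.194). Among 8 tested genes that anchor or traffic canalicular transporters 0 passed. Ezr, which links membrane proteins to actin, had 0.45 (SE 0.16, limma adjusted p = 0.257), with groups that did not overlap. Rab11a, of recycling endosomes, had 0.47 (SE 0.25, limma adjusted p = 0.444). Over all tested probes, groups did not overlap for 8.07%.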
